A study of Mus musculus with 5 samples.

Results

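Matrix proteases and their inhibitors were taken as the genes whose platform symbol is that of a matrix metalloproteinase (Mmp), an ADAM protease (Adam), an ADAMTS protease (Adamts) or a tissue inhibitor of metalloproteinases (Timp). The rule used names alone and no measured value. It found 78 genes among the 19938 genes of the series that had a probe set of 1 gene, and the brightest probe set stood for a gene with several. These were 22 Mmp, 18 Adamts, 34 Adam and 4 Timp genes, on 102 probe sets. Expression was measured on 5 whole-transcript mouse arrays, 1 for each of 5 cell groups, all from F1 animals of the 129X1/SvJ X MSM/Ms cross. The groups were embryonic stem cells (ESCs) named 2i and S, and mouse embryonic fibroblasts (MEFs) named 4n 2i, 2n 2i and control. By common usage 2i is ESC culture under combined MEK and GSK3 inhibition. The labels leave S, 2n and 4n unexplained, and they serve here as names. Numbers that the labels do not explain follow the group name in each sample title. They are 15 for 2i ESCs, 36 for S ESCs, 2 and 3 for 4n 2i MEFs, 15 and 1 for 2n 2i MEFs and 4 for control MEFs. The sources used here do not say whether a sample is 1 line, 1 clone or a pool.

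Matrix metalloproteinases are zinc enzymes that cut collagens, elastin and other matrix proteins after their propeptide is removed. ADAMTS enzymes are secreted relatives that cut proteoglycans, procollagens and microfibril proteins, and many ADAMs sit in the cell membrane and release the outer parts of other membrane proteins. TIMPs bind the active site of these enzymes and block it. Fibroblasts make much of this system as they build and turn over connective tissue.

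Values are linear intensities as the authors deposited them, and differences are of log2(intensity + 1). An array's floor was the median of its one-gene probe sets, between 222 and 242 intensity units, and a value below it holds an unknown part of background. With 1 array per group no pair of arrays could be tested, so a gene is called higher or lower there at a difference of at least 2-fold when its brighter array reached the floor. The 2 ESC and 3 MEF arrays were also compared with limma across all genes, where the spread is that between groups of a cell type and not between replicate cultures. Levels of different genes come from different probes and are not compared with each other. The labelled cell types were borne out by their markers. All 8 pluripotency markers reached the floor on both ESC arrays and 0 of 8 on any MEF array, and all 10 fibroblast markers reached it on every MEF array, against 4 on the 2i and 5 on the S ESC array. Macrophage markers stood apart on the 4n 2i MEF array, where 9 of 12 reached the floor, against 3 of 12 on the 2n 2i and on the control MEF array. Of the mesothelial markers, 6 of 6 reached the floor on the 4n and the 2n 2i MEF array and 2 of 6 on the control MEF array.

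Much of the family was below the level that could be read. Of the 78 members, 37 reached the floor on at least 1 array, 15 on every array and 41 on none. On the ESC arrays 18 members each reached it (23.1%), against 35 on the 4n 2i MEF array (44.9%) and 32 each on the 2n 2i and control MEF arrays (41.0%). Among all genes the share was between 49.6% and 49.8% on every array. The plot of intensities by array shows the 37 members by role. The 22 ADAMs of sperm and the reproductive tract, among them Adam2, a sperm surface protein, were all below the floor, with intensities from 24.7 to 102 units. None of 8 spermatid and sperm markers reached the floor on any array either. The deposited value was identical on all 3 MEF arrays for 25 of the 78 members, of which Mmp25 alone reached the floor on any array.

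**Figure D1:**
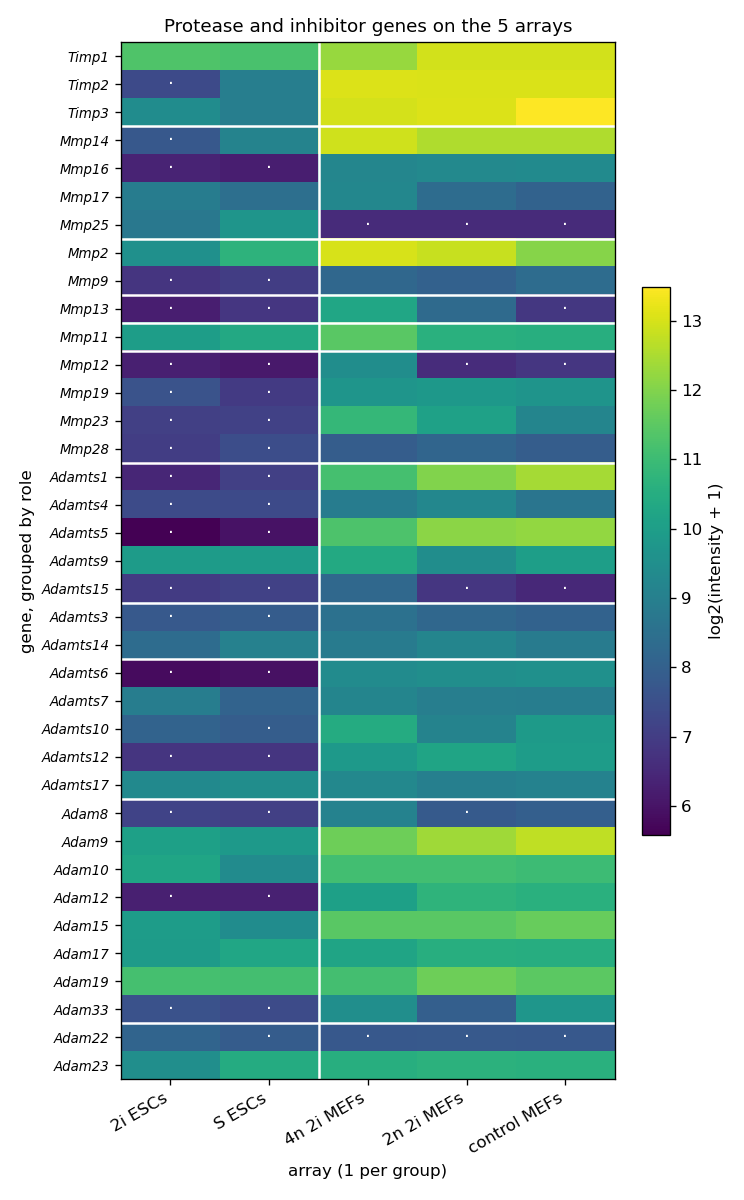
Log2(intensity + 1) of the 37 members that reached the floor on at least 1 array (rows, grouped by role, with white lines between roles) on the 5 arrays (columns, 1 per group). A white dot marks a value below the array's floor. Colours compare arrays within a row, since rows are different probes. Most rows are darker on the ESC arrays, and Mmp25 is the reverse.

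Most of the measurable family was lower in ESCs than in MEFs, inhibitors included. In limma, 19 of the 37 members past the floor were lower in ESCs and 1 was higher, by 2-fold or more with an adjusted p under 0.05, while 17 were not called. Over all 11796 genes tested, 33% were called, 16.3% lower and 16.7% higher in ESCs. The median difference of the 37 members was -1.47, against 0.06 for all genes tested. A gene that reached the floor through its MEF arrays alone had to be lower in ESCs. Among the called members these were Mmp9, Mmp16, Mmp19, Mmp23, Adamts1, Adamts4, Adamts5, Adamts6, Adamts12 and Adam12. Mmp25, the member called higher, reached the floor through the ESC arrays alone. The count and the median therefore describe the members that were measurable. Over all 78 members the median was -0.25. In bulk RNA, fewer cells of a type and less RNA per cell cannot be told apart.

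Of the TIMPs, Timp2 (Entrez Gene 21858, chromosome 11) is a soluble inhibitor that also helps to activate pro-Mmp2 at the cell surface. Timp2 had 163 and 503 intensity units on the 2i and S ESC arrays, against 8610.0, 8462 and 8462 units on the 4n 2i, 2n 2i and control MEF arrays. Every MEF value lay far above both ESC values, and the values of the 2n 2i and control MEFs were identical as deposited. The 2i ESC value lay below the floor, so the fold of Timp2 was partly taken against background. Timp2 averaged 8.17 ± 1.14 (log2, SD, n = 2) in ESCs and 13.06 ± 0.01 (SD, n = 3) in MEFs, 29.6-fold lower in ESCs with an adjusted p of 0.00209 in limma. Timp3 (Entrez Gene 21859), which stays bound to the matrix and also inhibits ADAMs, had 684 and 504 units in 2i and S ESCs, against 8085, 8672 and 11498 units in 4n 2i, 2n 2i and control MEFs. It was 15.8-fold lower in ESCs, with an adjusted p of 0.00054 in limma. Timp1 (Entrez Gene 21857, on the X chromosome) differed less, with 2535 and 2368 units in 2i and S ESCs, against 4942, 7986 and 7897 units in 4n 2i, 2n 2i and control MEFs. Its difference of 2.77-fold had an adjusted p of 0.00895 in limma, which became 0.0818 to 0.0935 on leaving out either ESC array. Timp4, known from heart and fat, was below the floor everywhere, at 86.4 to 127 units.

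Among the membrane-type Mmps, which are made active and stay on the cell surface, Mmp14 and Mmp16 were lower in ESCs and Mmp25 was higher. Mmp14 (Entrez Gene 17387), the main collagenase of the fibroblast surface and the activator of pro-Mmp2, had 215 and 559.6 units in 2i and S ESCs, against 7799, 6039 and 5962 units in 4n 2i, 2n 2i and control MEFs. That was 18.8-fold lower in ESCs (adjusted p = 0.00227 in limma), and the 2i value lay below the floor. Mmp16 had 81.3 and 75.7 units in ESCs, both below the floor, against 591 to 657 units in MEFs. It was 7.87-fold lower (adjusted p = 0.000215 in limma), again a fold against background. Mmp25 (Entrez Gene 240047), a lipid-anchored Mmp known from leukocytes, was the exception of the whole family. It had 429.6 and 838 units in 2i and S ESCs, both above the floor, and the identical value of 92.6 units on all 3 MEF arrays. The 6.42-fold excess in ESCs had an adjusted p of 0.00269 in limma, and that p holds no measured spread between MEF arrays. The MEF value lay below the floor, so Mmp25 entered through the ESC arrays alone and had to be higher there. Its fold was taken against background. Mmp17, also lipid-anchored, did not pass the test (log2 difference 0.13, adjusted p = 0.799 in limma), and Mmp24 stayed below the floor.

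Both gelatinases, which digest denatured collagen, were lower in ESCs. Mmp2 (Entrez Gene 17390) had 753 and 1673 units in 2i and S ESCs, against 8239, 7203 and 4283 units in 4n 2i, 2n 2i and control MEFs, a 5.64-fold difference with an adjusted p of 0.0113 in limma. Without the 2i ESC array the adjusted p of Mmp2 was 0.0814. Mmp9 lay near the floor in MEFs, at 263 to 335 units, and below it in ESCs, at 112 and 127 units (2.48-fold lower, adjusted p = 0.00247 in limma). Of the other Mmps, Mmp19 and Mmp23 were lower in ESCs, and Mmp23 lost its call without either ESC array (adjusted p = 0.0945 to 0.0947 in limma). Mmp19, a secreted enzyme that cuts basement membrane proteins, had 195 and 119.7 units in 2i and S ESCs, both below the floor. In MEFs it had 825 to 885 units (adjusted p = 0.00163 in limma). Mmp23 read 133 and 136 units in 2i and S ESCs. Neither value reached the floor, so its difference was taken against background. Mmp11, a stromelysin of stromal cells, was above the floor on every array, with 1019.9 and 1309 units in 2i and S ESCs and 1500.0 to 2803 units in MEFs. It did not pass the test (adjusted p = 0.139 in limma).

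Of 12 ADAMTS genes past the floor, 6 were lower in ESCs and 0 higher. Adamts5 and Adamts1 cut the proteoglycans aggrecan and versican and are neighbours on chromosome 16, with no coding gene listed between them. Adamts1 (Entrez Gene 11504) had 85.5 and 136 units in 2i and S ESCs, against 2262, 4046 and 5512 units in 4n 2i, 2n 2i and control MEFs, 34.0-fold lower in ESCs (adjusted p = 0.00146 in limma). Adamts5 (Entrez Gene 23794) had 47.0 and 62.1 units in 2i and S ESCs, against 2485, 4439.7 and 4733 units in 4n 2i, 2n 2i and control MEFs, a 68.0-fold difference (adjusted p = 0.000538 in limma). Both ESC values of either gene lay below the floor, so these folds were taken against background and do not rank the genes against other members. Adamts4, the third aggrecan-cleaving enzyme, differed by 2.94-fold (adjusted p = 0.00357 in limma). Adamts9, which cuts versican, was well above the floor in both cell types and did not pass the test, at 966 and 979 units in 2i and S ESCs, against 1334, 696 and 1041 units in 4n 2i, 2n 2i and control MEFs (adjusted p = 0.95 in limma, 95% interval of the log2 difference -0.82 to 0.77). Adamts6 (12.2-fold, adjusted p = 0.000185 in limma), Adamts12 (9.21-fold, adjusted p = 0.000293) and Adamts10 (3.53-fold, adjusted p = 0.0198), which binds fibrillin microfibrils, were also lower in ESCs. In 2i and S ESCs, Adamts6 read 54.8 and 60.4 units, Adamts12 111 and 111 units and Adamts4 168 and 164 units. None of these values reached the floor, so the folds of Adamts4, Adamts6 and Adamts12 were taken against background as well. The adjusted p of Adamts10 became 0.0546 to 0.157 on leaving out either ESC array or the control MEF array. The procollagen-processing enzymes Adamts3 and Adamts14 did not pass, with log2 differences of -0.45 and -0.26.

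Of 10 ADAMs past the floor, 4 were lower in ESCs and 6 were not called. Adam12 (Entrez Gene 11489), an ADAM of mesenchyme and muscle precursors, had 77.2 and 77.9 units in 2i and S ESCs, against 1088, 1699 and 1552 units in 4n 2i, 2n 2i and control MEFs. It was 18.1-fold lower in ESCs (adjusted p = 0.000473 in limma), a fold against background since both ESC values lay below the floor. Adam9 (4.96-fold, adjusted p = 0.00471), Adam15 (3.56-fold, adjusted p = 0.00231) and Adam10 (2.36-fold, adjusted p = 0.0169) were lower in ESCs in limma but stayed above the floor on every array. Adam10, the sheddase of Notch receptors, lost its call without the 2n 2i MEF array (adjusted p = 0.0557 in limma), and without the S ESC array, where its log2 difference of -0.82 was under 2-fold. Adam9 lost its call without either ESC array (adjusted p = 0.0554 to 0.0653 in limma). Adam17, which releases tumour necrosis factor and ligands of the EGF receptor, had 974 and 1224 units in 2i and S ESCs, against 1183, 1474 and 1454 units in 4n 2i, 2n 2i and control MEFs. The groups overlapped, and Adam17 did not pass the test (adjusted p = 0.16 in limma, 95% interval of the log2 difference -0.76 to 0.12). Adam19 also overlapped between the cell types, at 2269 and 2212 units in ESCs and 2236 to 3415 units in MEFs. Adam33 (log2 difference -1.57, adjusted p = 0.0775 in limma) and Adam8 (-1.19, adjusted p = 0.0713), which varied between the MEF arrays, did not pass either.

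**Figure D2:**
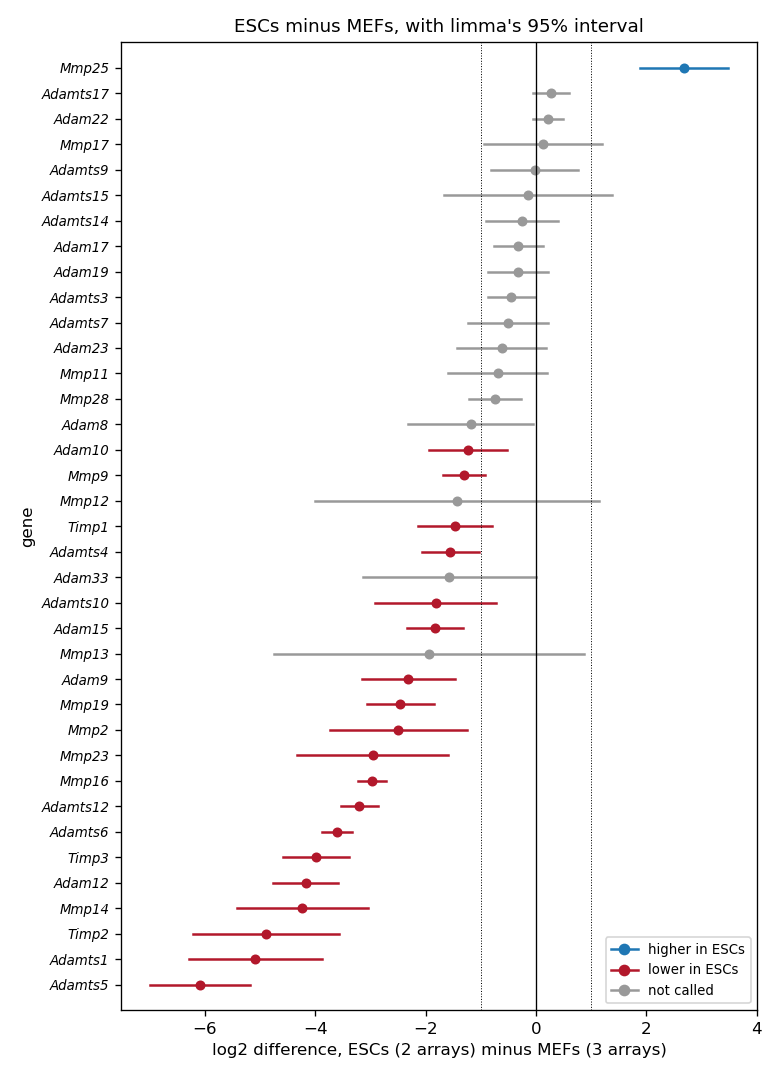
Log2 difference, ESCs (2 arrays) minus MEFs (3 arrays), for the 37 members past the floor (rows, from the highest), with limma's 95% interval as a line and dotted lines at 2-fold. Mmp25 is the member called higher in ESCs (blue), 19 members are called lower (red), and 17 are not called (grey).

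Promoter sequences were read for members of these groups from the RefSeq promoter table (GRCm38.p6), which holds 250 bases before and 50 bases after a gene's start and matched 48 of the 78 members. Mmp14, Timp2 and Adamts1, a membrane protease, an inhibitor and a secreted protease, are shown because all were called lower in ESCs. Capitals mark the GC box (GGGCGG or its reverse complement CCGCCC), a site bound by Sp1-type factors, searched on both strands.
Mmp14, chr14:54431348-54431647, plus strand: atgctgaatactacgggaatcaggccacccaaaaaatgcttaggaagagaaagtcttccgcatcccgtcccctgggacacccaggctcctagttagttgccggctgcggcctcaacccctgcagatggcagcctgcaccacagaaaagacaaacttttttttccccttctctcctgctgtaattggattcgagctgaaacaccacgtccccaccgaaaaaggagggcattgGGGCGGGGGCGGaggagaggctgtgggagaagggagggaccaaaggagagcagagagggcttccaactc
Timp2, chr11:118355362-118355661, minus strand: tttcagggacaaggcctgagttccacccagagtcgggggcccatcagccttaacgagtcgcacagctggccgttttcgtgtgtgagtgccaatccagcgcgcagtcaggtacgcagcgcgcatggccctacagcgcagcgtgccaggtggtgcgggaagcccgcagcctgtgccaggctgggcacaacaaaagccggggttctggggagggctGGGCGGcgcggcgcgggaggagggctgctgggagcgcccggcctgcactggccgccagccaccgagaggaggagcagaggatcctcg
Adamts1, chr16:85803064-85803363, minus strand: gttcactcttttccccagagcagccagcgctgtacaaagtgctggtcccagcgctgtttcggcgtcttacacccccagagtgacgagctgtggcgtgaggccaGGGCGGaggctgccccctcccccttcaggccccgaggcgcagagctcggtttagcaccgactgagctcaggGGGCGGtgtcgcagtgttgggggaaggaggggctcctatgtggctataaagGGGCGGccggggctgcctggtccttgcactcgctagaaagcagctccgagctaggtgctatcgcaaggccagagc
The window of Mmp14 held 2 GC boxes, that of Timp2 held 1 and that of Adamts1 held 3. A GC box stood in 35.7% of all 32851 promoters of the table and in the windows of 21 of the 48 members, so its presence is common. The windows of Timp2 and Adamts1 held 25 and 18 CpG dinucleotides and that of Mmp14 held 10, against a median of 7 over all promoters.

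In each of 7 lists of other genes of the system, more genes were called lower than higher in ESCs, beside the 16.3% lower and 16.7% higher over all genes tested. As with the members, a gene that reached the floor in MEFs alone had to be lower in ESCs. A gene that reached it in ESCs alone had to be higher there. Of the genes named below, Plat, Plau, Ctsk, Prss23, Cd44 and Nrg1 were below the floor on both ESC arrays. A2m was below it on every MEF array. The differences of these genes were taken against background. Of the plasminogen system, which activates several pro-Mmps, 3 of 4 genes past the floor were lower in ESCs and 0 higher, among them the activators Plat (log2 difference -3.92) and Plau (-3.68). Of 8 genes that process procollagens and propeptides, 5 were lower and 1 higher. The lower ones included the procollagen C-proteinase gene Bmp1 (-3.57) and Furin (-1.83), which removes the propeptide of membrane-type Mmps and ADAMs, and the higher one was the proprotein convertase gene Pcsk6 (1.68). Cathepsins and related genes gave 7 lower and 2 higher of 14. The collagen-degrading cathepsin gene Ctsk (-4.87) and the serine protease gene Prss23 (-4.72) were lower, and the broad protease inhibitor gene A2m (2.98) was higher. Of 15 membrane partners, 7 were lower and 3 higher. The lower ones included Cd44 (-3.86), a docking receptor of Mmp9 and Mmp14, and Lrp1 (-1.80), which takes proteases and TIMPs into the cell. Of 12 substrates past the floor 7 were lower and 0 higher, with the collagen gene Col1a1, also among the fibroblast markers, at -4.81 and Vcan, encoding versican, at -3.02. Of 10 membrane proteins that ADAMs release, 3 were lower and 0 higher, with Nrg1, encoding neuregulin, at -2.63 and the Notch ligand gene Jag1 at -1.52. ADAMTS-like genes, relatives without a protease domain, gave 2 lower of 5.

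In 2i ESCs, Timp2, Mmp14 and Mmp2 were the 3 members at least 2-fold away from S ESCs, all lower on the 2i array. These are the inhibitor, the membrane protease and the gelatinase that assemble on the cell surface when pro-Mmp2 is activated. Of 20 members past the floor, 0 were at least 2-fold higher and 3 lower, where 5.33% of 10461 genes compared differed by 2-fold, 2.79% higher and 2.54% lower. By any amount 10 members were higher and 10 lower in 2i ESCs. Their median difference was 0.01, against -0.04 for all genes compared. Timp2 was 3.07-fold lower, with 163 units on the 2i array, below its floor, and 503 units on the S array. Mmp14 was 2.59-fold lower (215 against 559.6 units), and its 2i value was also below the floor. Timp2 and Mmp14 thus entered through the S array alone and had to be lower on the 2i array. Mmp2 was 2.22-fold lower (753 against 1673 units), with both values above the floor.

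Adam23, an ADAM of neurons without protease activity, and Mmp25 came close to the threshold. Adam23 had 719 units in 2i ESCs and 1408 units in S ESCs, and Mmp25 had 429.6 and 838 units, so both were 1.95 to 1.96-fold lower on the 2i array. Towards the other side, Adam10 had 1206 units in 2i ESCs and 676 units in S ESCs (1.78-fold higher) and Adamts7, which cuts the cartilage protein COMP, had 488 and 276 units (1.77-fold higher). Timp3 (684 against 504 units) and Timp1 (2535 against 2368 units) were slightly higher on the 2i array, so the inhibitors did not move together.

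Of the 10 fibroblast markers, 5 were past the floor in this pair. All 5 were lower on the 2i array, and 1 of them, Dcn, by 2-fold or more. Dcn was below the floor on the 2i array. Col3a1, Pdgfra, Postn, Lum and Twist2 were below the floor on both ESC arrays, so background is part of the values that follow. The summed intensity of the 10 markers was 2379 units on the 2i array and 3364 units on the S array. It was between 60826 and 76615 units on the MEF arrays. For the 10 markers, the excess on the S over the 2i array was between 0.352% (Pdgfrb) and 3.88% (Thy1) of the control MEF intensity. The same excess was 4.01% for Timp2, 5.78% for Mmp14 and 21.5% for Mmp2. Timp3, Timp1, Adam9, Adam10, Adam15 and Adamts10, which were lower in ESCs than in MEFs as well, had no excess on the S array. The part of fibroblast RNA in these differences was not tested.

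**Figure D3:**
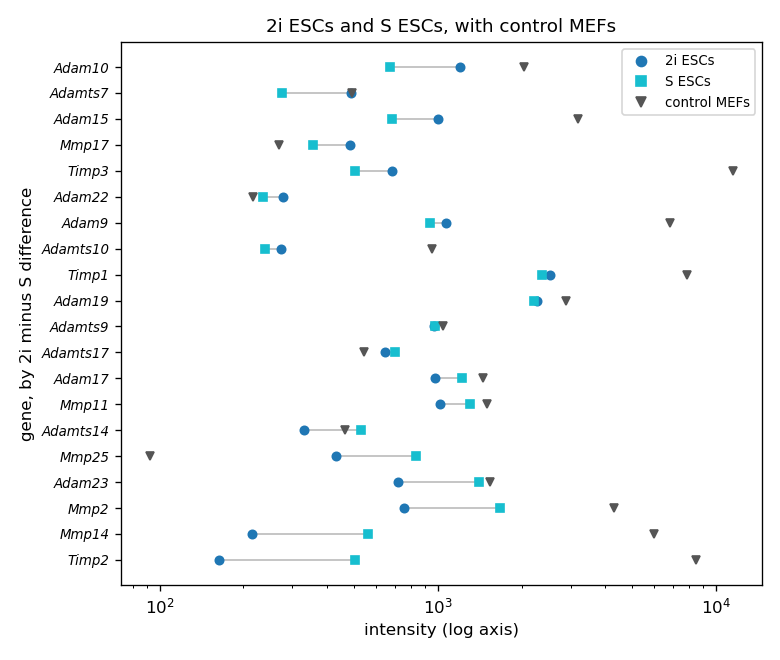
Intensity (log axis) of the 20 members past the floor in 2i ESCs (circles) and S ESCs (squares), with control MEFs (triangles) for reference, 1 array each. Rows run from the largest excess in 2i ESCs (Adam10) to the largest deficit. Timp2, Mmp14 and Mmp2 at the bottom are at least 2-fold lower in 2i than in S ESCs, and higher in control MEFs than in either.

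Of 9 cathepsins and related genes past the floor, 2 were at least 2-fold higher in 2i than in S ESCs and 1 lower. The procollagen and propeptide processing list gave 0 of 5, and over all genes compared 2.79% were higher and 2.54% lower. The 2i ESCs differed from the S ESCs in A2m (log2 difference 1.82) and the secreted serine protease gene Htra1 (2.28), both higher, and in Dpp4 (-1.06), the urokinase receptor gene Plaur (-1.03) and Vcan (-1.15), all lower. Cd63, encoding a tetraspanin that binds Timp1, was higher on the 2i array (1.76), as was the interleukin 6 receptor gene Il6ra (2.83-fold), whose product Adam10 and Adam17 release. Plaur was below the floor in 2i ESCs and Il6ra in S ESCs, so the floor fixed the direction of both.

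Between the 4n 2i MEFs and control MEFs, 6 members were at least 2-fold higher and 1 lower. They were Mmp13, Mmp12, Adamts15, Mmp23, Mmp17 and Adam8, all higher, and Adamts1, lower. Of 35 members past the floor this is 17.1% higher and 2.86% lower, where 8.71% of the 10271 genes compared differed by 2-fold, 5.28% higher and 3.44% lower. The members went both ways, with 18 above 0 and 15 below it and a median difference of 0.01, against -0.01 for all genes compared. Of 11 Mmps past the floor 4 were at least 2-fold higher and 0 lower. Mmp13, Mmp12 and Adamts15 were below the floor in control MEFs. They entered this pair through the 4n 2i MEF array alone, so they had to be higher there.

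Mmp13 (Entrez Gene 17386), the main interstitial collagenase of rodents, had 1224 units in 4n 2i MEFs, 321 units in 2n 2i MEFs and 115 units in control MEFs. It was below the floor in control MEFs and on both ESC arrays (75.6 units in 2i and 113 units in S ESCs). The difference was 10.6-fold between 4n 2i and control MEFs. Mmp12 (Entrez Gene 17381), the elastase of macrophages, had 698 units in 4n 2i MEFs, against 95.6 units in 2n 2i MEFs and 114 units in control MEFs. Only the 4n 2i MEF value was above the floor, and it was 6.09-fold above the control. Adam8, an ADAM of myeloid cells, had 549 units in 4n 2i MEFs, against 227 units in 2n 2i MEFs and 253 units in control MEFs (2.17-fold above the control).

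Macrophage markers were higher on the same array. The summed intensity of the 12 markers was 20710 units in 4n 2i MEFs, against 2101 units in 2n 2i MEFs and 2592 units in control MEFs. The macrophage receptor genes Csf1r (481 units in 4n 2i MEFs, against 143 units in both 2n 2i and control MEFs) and Adgre1 (282 against 44.9 and 47.3 units) were among them, and so was Lyz2 (5913 against 429 and 689 units). Itgam, Cd14 and Ptprc were below the floor on all arrays, and 0 of 6 neutrophil markers reached the floor on any array. The part of macrophage RNA in the values of Mmp12, Mmp13 and Adam8 was not tested.

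Mmp23 (Entrez Gene 26561), a membrane-anchored Mmp, was graded, with 1847 units in 4n 2i MEFs, 1092 units in 2n 2i MEFs and 580.3 units in control MEFs. Its difference from the control was 3.18-fold in 4n and 1.88-fold in 2n 2i MEFs. Adamts15, a proteoglycan-cleaving enzyme, had 302 units in 4n 2i MEFs, against 113 and 89.4 units in 2n 2i and control MEFs, and was above the floor in 4n 2i MEFs alone. Adamts8, its neighbour on chromosome 9, stayed below the floor at 106 to 109.6 units in MEFs. Mmp17 had 611 units in 4n 2i MEFs, against 329.6 units in 2n 2i MEFs and 269 units in control MEFs (2.27-fold above the control). Adamts1 was 2.44-fold lower in 4n 2i than in control MEFs, and its neighbour Adamts5 1.90-fold lower (2485 against 4733 units). Adam9 fell just short of the threshold, 1.99-fold lower (3429 against 6812 units). Of the TIMPs, Timp1 had a log2 difference of -0.68, Timp3 of -0.51 and Timp2 of 0.02, none of them beyond 2-fold.

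Mmp13 and Mmp12 are the first and second genes of a cluster of 10 Mmp genes on chromosome 9 (GRCm38.p6, 7272514 to 7699585), which lie side by side with no other coding gene listed between them. The plot of the cluster shows its 10 genes in order. No gene of the cluster reached the floor in control MEFs or ESCs, 1 did in 2n 2i MEFs and 2 in 4n 2i MEFs. Mmp3, a stromelysin that activates other pro-Mmps, had its highest value in 4n 2i MEFs too, but below the floor, at 190.4 units against 81.1 and 103 units in 2n 2i and control MEFs. For 5 of the 10 genes, among them Mmp10 (68.6 units) and Mmp7 (79.1 units), the deposited value was identical on all 3 MEF arrays.

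**Figure D4:**
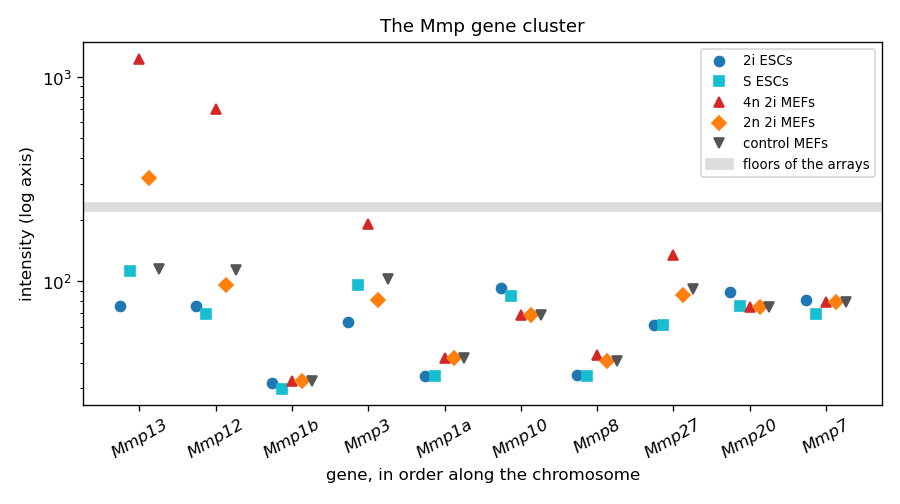
Intensity (log axis) of the 10 Mmp genes of the cluster, in their order along the chromosome, on the 5 arrays (1 point each), with the range of the arrays' floors as a grey band. Mmp13 in 4n 2i MEFs (1224 units) and 2n 2i MEFs (321 units) and Mmp12 in 4n 2i MEFs (698 units) are the 3 values above the band.

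Promoters of 5 genes of the cluster are shown because Mmp13 and Mmp12 were the genes of the cluster above the floor, and the other three were below it. Capitals mark the AP-1 site (TGAGTCA or its reverse complement TGACTCA), which Fos and Jun proteins bind, searched on both strands. Mmp12 has 2 listed starts, and the window with a match is given, while the other held none.
Mmp13, chr9:7272264-7272563, plus strand: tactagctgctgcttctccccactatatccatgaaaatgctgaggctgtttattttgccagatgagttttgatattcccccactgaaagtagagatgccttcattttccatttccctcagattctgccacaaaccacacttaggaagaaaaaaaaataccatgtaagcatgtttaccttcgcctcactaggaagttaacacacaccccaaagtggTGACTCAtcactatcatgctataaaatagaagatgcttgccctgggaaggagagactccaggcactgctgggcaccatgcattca
Mmp12, chr9:7347124-7347423, plus strand: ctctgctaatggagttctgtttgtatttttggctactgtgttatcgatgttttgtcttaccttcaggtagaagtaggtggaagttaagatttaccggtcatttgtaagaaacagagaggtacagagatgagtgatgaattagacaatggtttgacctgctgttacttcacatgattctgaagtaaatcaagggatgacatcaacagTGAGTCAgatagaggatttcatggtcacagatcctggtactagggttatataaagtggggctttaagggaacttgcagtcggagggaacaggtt
Mmp3, chr9:7445572-7445871, plus strand: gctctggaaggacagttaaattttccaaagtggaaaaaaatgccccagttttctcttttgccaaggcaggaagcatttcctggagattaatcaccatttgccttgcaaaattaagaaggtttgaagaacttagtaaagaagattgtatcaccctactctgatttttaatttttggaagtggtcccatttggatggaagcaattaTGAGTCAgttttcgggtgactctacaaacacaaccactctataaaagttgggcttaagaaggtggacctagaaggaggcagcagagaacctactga
Mmp10, chr9:7502092-7502391, plus strand: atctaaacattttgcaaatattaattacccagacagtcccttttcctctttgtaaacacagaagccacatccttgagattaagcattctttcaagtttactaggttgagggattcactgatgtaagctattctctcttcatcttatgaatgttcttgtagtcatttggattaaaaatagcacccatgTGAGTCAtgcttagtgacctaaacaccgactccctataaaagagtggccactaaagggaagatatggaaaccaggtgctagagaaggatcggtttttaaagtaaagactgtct
Mmp8, chr9:7558179-7558478, plus strand: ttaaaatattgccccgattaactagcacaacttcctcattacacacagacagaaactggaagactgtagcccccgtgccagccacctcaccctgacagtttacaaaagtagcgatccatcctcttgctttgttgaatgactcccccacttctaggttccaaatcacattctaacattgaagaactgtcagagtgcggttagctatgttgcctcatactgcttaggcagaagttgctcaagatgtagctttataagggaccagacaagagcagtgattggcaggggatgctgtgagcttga
An AP-1 site was found for 7 of the 10 genes of the cluster, once each, beginning between 35 and 93 bases before the start. It began 35 bases before the start in Mmp13, 44 in Mmp12, 46 in Mmp3 and 63 in Mmp10, and none was found in the window of Mmp8. The site stood in 5.20% of all promoters of the table and in 3 of the 38 other members with a window. The letters TATAAA were found for 8 of the 10 genes and in 8.32% of all promoters, and a GC box for 0 of 10. Mmp3, Mmp10, Mmp1a, Mmp1b and Mmp7 held an AP-1 site and were below the floor on every array, so the letters alone did not separate the members that were present from those that were not. No factor binding was measured.

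Between 2n 2i and control MEFs few members differed by 2-fold, as did few of all genes. Of 33 members past the floor 1 was at least 2-fold higher (3.03%), Mmp13, and 1 lower, Adam33, where 1.91% of 10082 genes compared differed by 2-fold, 1.49% higher and 0.427% lower. Mmp13 was 2.77-fold higher (321 against 115 units), and had to be higher since its control value was below the floor. Adam33 (Entrez Gene 110751), an ADAM of mesenchymal cells known from asthma genetics in humans, was 3.37-fold lower, with 249.7 units in 2n 2i MEFs against 844 units in control MEFs. The 2n 2i value lay just above that array's floor of 231 units. In 4n 2i MEFs Adam33 was at 721 units, within 2-fold of control. Both comparisons use the same control array, so their values are given side by side and their likeness is not counted as a result. Mmp2 had 8239 units in 4n 2i MEFs, 7203 units in 2n 2i MEFs and 4283 units in control MEFs, 1.92-fold and 1.68-fold above the control. Adamts10, by contrast, was higher in 4n 2i MEFs (1393 units) and lower in 2n 2i MEFs (557 units) than in control MEFs (956 units). Of the 6 mesothelial markers, 5 were at least 2-fold higher in either 2i MEF group than in control MEFs, and Krt19 was slightly lower (491 units in 4n 2i, 588 units in 2n 2i and 621 units in control MEFs). Upk3b (2387 units in 4n 2i, 1195 units in 2n 2i and 160.0 units in control MEFs) and Wt1 (681, 404 and 149.7 units) were among the 5, and the part of mesothelial RNA in the values of the proteases was not tested.

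**Figure D5:**
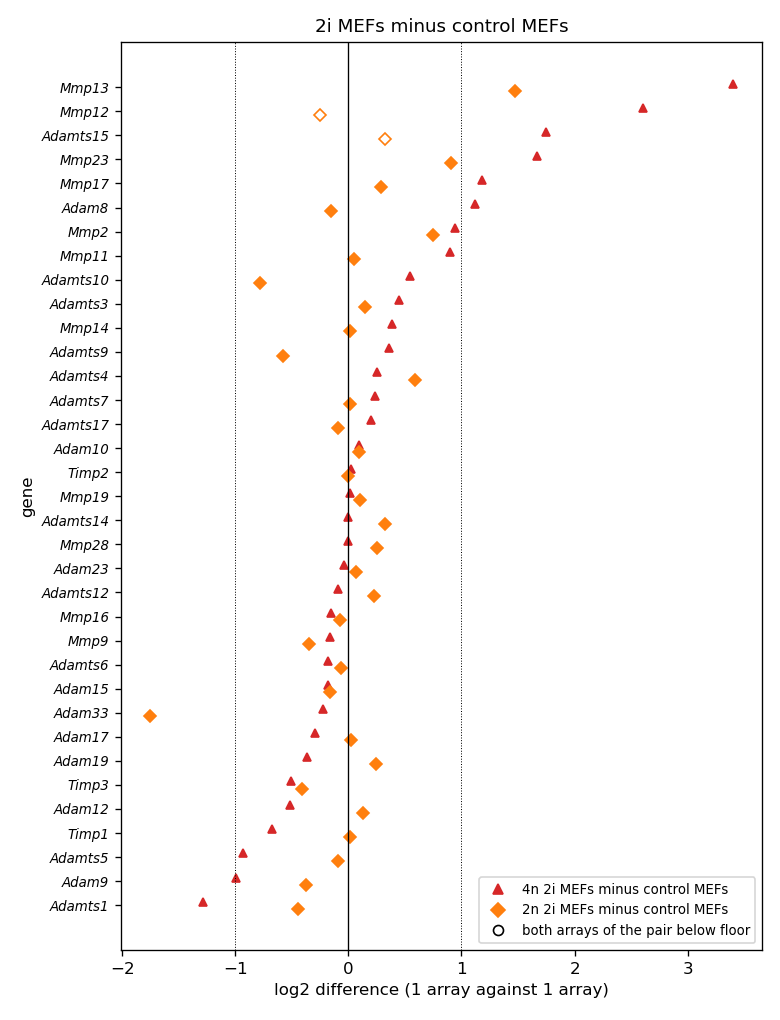
Log2 difference from control MEFs of 4n 2i MEFs (triangles) and 2n 2i MEFs (diamonds) for members past the floor in at least 1 of these pairs (rows, by the 4n difference), 1 array against 1 array, with dotted lines at 2-fold. Open symbols mark a pair in which both arrays were below the floor. Mmp13 lies beyond 2-fold in both, Adam33 in 2n 2i MEFs alone, and Mmp12, Adamts15, Mmp23, Mmp17, Adam8 and Adamts1 in 4n 2i MEFs alone.

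Set directly against the 2n 2i MEFs, the 4n 2i MEFs had 6 members at least 2-fold higher and 0 lower of 35 past the floor (17.1% higher), where 5.7% of 10251 genes compared differed by 2-fold, 3.34% higher and 2.36% lower. These were Mmp12 (7.23-fold), Mmp13 (3.81-fold), Adam33 (2.88-fold), Adamts15 (2.67-fold), Adamts10 (2.50-fold) and Adam8 (2.41-fold). Mmp12, Adamts15 and Adam8 were below the floor in 2n 2i MEFs. They entered through the 4n 2i MEF array alone and so had to be higher there. Adam33 lay just above the floor in 2n 2i MEFs. Adamts9 was just inside the threshold at 1.91-fold (1334 against 696 units). Its 6 probe sets were all higher in 4n than in 2n 2i MEFs, with log2 differences of 0.40 to 0.94, but gave 4 higher and 2 lower against control MEFs. The log2 differences of the TIMPs were -0.69 for Timp1, -0.10 for Timp3 and 0.02 for Timp2.

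In 4n 2i against control MEFs, 3 of 12 cathepsins and related genes were higher by 2-fold or more and 0 lower. Of 8 procollagen and propeptide processing genes 0 were higher and 2 lower, where 5.28% of all genes compared were higher and 3.44% lower. The fibroblast activation protease gene Fap (log2 difference 3.42), the macrophage cathepsin gene Ctss (2.08) and Htra1 (1.54) were the higher ones, and the Bmp1-related gene Tll1 (-2.53) and the procollagen proteinase enhancer gene Pcolce2 (-2.93) the lower ones. Of 9 membrane proteins that ADAMs release, 1 was at least 2-fold higher and 2 were lower. The lower ones were the EGF receptor ligand genes Ereg, at 97.9 units in 4n 2i MEFs against 1079 units in control MEFs, and Hbegf, at 506 against 2060 units. The higher one was the chemokine gene Cx3cl1, at 792 against 290 units, whose product Adam10 and Adam17 release. Plaur (-1.82) and Cd44 (-1.89) were lower as well. In 2n 2i MEFs, Fap (1.60) and Cx3cl1 (1.48) were at least 2-fold higher than in control MEFs, and 0 genes of these lists were at least 2-fold lower. Over all genes compared in that pair 1.49% were higher and 0.427% lower. Fap and Ctss were below the floor in control MEFs, so they had to be higher where called. Pcolce2 and Ereg were below it in 4n 2i MEFs, so they had to be lower there.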

How the data were processed

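RNA of 5 mouse samples was hybridised to whole-transcript arrays. The authors deposited linear intensity values for 28853 probe sets, and the sources used here name no background correction, summary or normalization method. The platform table gave 1 symbol to 21789 probe sets, several to 1621 (not used) and none to 5443. RefSeq (GRCm38.p6) gave names, chromosomes and promoters.

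The deposited intensities were analysed as log2(value + 1), with the brightest probe set of a gene, chosen over all 5 arrays. A gene entered a comparison when its value on the brightest array reached the floor of that array. ESCs and MEFs were compared with limma 3.58.1 in R 4.3.3 (lmFit and eBayes, Benjamini-Hochberg adjustment over all genes past the floor, 3 residual degrees of freedom), which was tested on simulated data. The labels do not say that samples came from separate cultures, so p-values measure the spread between these samples, and the number of arrays limits the precision. At least 2 MEF arrays shared an identical value for 33.1% of the genes tested and for 5 of the 37 members past the floor, which lowers the measured spread.

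All members could be named. From 15 lists (136 of 140 genes measured), up to 4 genes per list and comparison were named by largest difference, beside cell type markers. The members and lists were chosen with earlier results of these data known. A planned search for motifs in the proteins was not made. Alternatives were quantile normalization, leaving out the floor or raising it to the 75th percentile, averaging a gene's probe sets, a pseudocount of 16, a 3-fold threshold, leaving out each array, an intensity trend with a robust prior, and genes with distinct MEF values only. Python 3.11.15, numpy 2.4.6, pandas 2.3.3 and matplotlib 3.10.9 were used.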

Additional observations from a re-analysis of the deposited data

How the results depend on the processing

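No paired analysis was possible because each group had 1 array. No difference changed sign in a called result under the alternatives run. For ESCs against MEFs, the 20 members called became 14 with the floor at the 75th percentile and 16 at 3-fold. They stayed at 20 on leaving out each MEF array in turn, and were fewer without either ESC array, which leaves 1 ESC array. Among the 32 members with distinct MEF values 18 were called, 0 higher and 18 lower. Mmp25 and Timp2, each with a value shared between MEF arrays, are not among the 32. Over all genes the 3888 calls became 2448 with that higher floor, 2105 at 3-fold, and 2980 to 3867 on leaving out each array. Adam23 without the S ESC array (adjusted p = 0.00393 in limma), Adam33 without the 2n 2i MEF array (0.00624), Mmp13 without the control MEF array (0.0499) and Adam8 under quantile normalization (0.0429) passed the test only there. The counts at 2-fold depended on the floor and the threshold. With the higher floor, members called fell to 1 of 3 for 2i against S ESCs, 0 of 2 for 2n 2i against control MEFs, 3 of 7 for 4n 2i against control MEFs and 2 of 6 for 4n 2i against 2n 2i MEFs, while all genes called were 205, 80, 505 and 307 in these comparisons, against 558, 193, 895 and 584. At 3-fold the members called were 1, 1, 4 and 2, and all genes 182, 53, 378 and 204. These 2 settings keep fewer genes by construction. Adamts9 passed 2-fold between 4n and 2n 2i MEFs under quantile normalization (log2 difference 1.01), which moved the median of all genes by less than 0.1. Members near the floor are the ones least well measured, since background is part of their values.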

Other observations

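Adamts3, which removes the propeptide of procollagens and of the lymphatic growth factor VEGF-C, was covered by 16 probe sets. All 16 were higher in 4n 2i than in control MEFs, with log2 differences from 0.20 to 1.48 and a median of 0.75, while its brightest probe set gave 0.45. Between ESCs and MEFs 15 of the 16 were lower in ESCs. On the control MEF array only the brightest probe set (270 units) reached the floor, and several were below it on the 4n 2i MEF array. All 16 were below the floor on both ESC arrays, so background is part of these differences. These probe sets lie in 1 gene and are not replicates of a condition. For Adamts9, all 6 probe sets were lower in 2n 2i than in control MEFs, with log2 differences from -0.73 to -0.26.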
